A study of Homo sapiens with 6 samples.

Results

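The tubulin genes described here are 10 human genes whose proteins build or seed microtubules: the alpha genes TUBA1A, TUBA1B and TUBA1C, the beta genes TUBB, TUBB2A, TUBB2B, TUBB3, TUBB4B and TUBB6, and the gamma gene TUBG1. They were chosen by symbol, and each matched 1 row of a table of raw read counts in which 60564 rows carried an Ensembl identifier. RNA sequencing had been done on HepG2, a hepatoma cell line of human origin that still makes many hepatocyte products. In 3 libraries the cells had received formononetin, a plant isoflavone with a methoxy group, for 72 h. Its dose is labelled as 625, in a unit spelled μm. In the 3 control libraries the label names the culture medium DMEM only, with no solvent and no treatment time. All 6 libraries came from cells labelled as wild type (WT) and grown in DMEM with 10% fetal calf serum. Nothing in the labels says that replicates were separate cultures, so the p-values speak for the variation among these 6 libraries alone, and that variation may be technical.

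Microtubules are hollow polymers of dimers of 1 alpha and 1 beta tubulin, and they form the mitotic spindle, the tracks of motor proteins and the core of cilia. Gamma tubulin sits at the minus end in a ring complex that starts new microtubules, mainly at the centrosome. Vertebrate genomes carry several alpha and beta genes, called isotypes, whose proteins differ mostly in the acidic tail. In hepatocytes microtubules carry secretory vesicles with albumin and lipoproteins to the cell surface. Cells lower their own tubulin mRNA when free dimers accumulate: the protein TTC5 binds the first residues of nascent alpha and beta chains and brings the CCR4-NOT deadenylase to the ribosome.

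The ends of the coding sequences are shown because both are functional: the start encodes the stretch that TTC5 reads, and the end encodes the tail that distinguishes isotypes and carries most tubulin modifications. The sequences come from GENCODE 29 coding transcripts on GRCh38, and capitals mark the first 4 codons of each 30-base start.
TUBA1B start: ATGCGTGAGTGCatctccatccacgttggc
TUBB start: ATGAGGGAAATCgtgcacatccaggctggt
TUBB4B start: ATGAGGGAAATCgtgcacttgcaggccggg
TUBB2B start: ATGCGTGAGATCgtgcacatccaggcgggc
TUBG1 start: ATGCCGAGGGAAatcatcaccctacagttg
TUBA1A and TUBA1C carry the same first 30 bases as TUBA1B. TUBG1 begins differently from the alpha and beta genes. In the last 60 bases of beta and gamma genes, capitals mark the codon before the stop.
TUBB end: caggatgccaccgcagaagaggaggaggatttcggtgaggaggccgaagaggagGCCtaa
TUBB4B end: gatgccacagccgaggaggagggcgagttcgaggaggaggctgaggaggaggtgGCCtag
TUBB2A end: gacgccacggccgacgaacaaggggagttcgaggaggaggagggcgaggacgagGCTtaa
TUBB2B end: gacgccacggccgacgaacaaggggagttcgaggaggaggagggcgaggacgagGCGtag
TUBB3 end: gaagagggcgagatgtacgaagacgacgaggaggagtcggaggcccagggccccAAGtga
TUBG1 end: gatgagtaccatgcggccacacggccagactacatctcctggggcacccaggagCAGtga
The ends of TUBB2A and TUBB2B differ only in the last codon and the stop. Over the whole coding sequence TUBA1A and TUBA1B were 97.2% identical, TUBA1B and TUBA1C 96.8%, and TUBB2A and TUBB2B 98.1%. TUBB and TUBB4B shared 84.4%, and TUBG1 shared 50.6% with TUBA1B and 54.3% with TUBB.

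Of the 10 tubulin genes, 5 rose with formononetin (TUBG1, TUBB4B, TUBA1B, TUBA1C and TUBB), 1 fell (TUBB2B) and 4 did not pass the test (TUBA1A, TUBB2A, TUBB3 and TUBB6). The call is an adjusted p under 0.05 in edgeR's quasi-likelihood test, with Benjamini-Hochberg adjustment over all 22230 genes tested. Among those genes 12.0% were called raised and 8.71% lowered. Among the 10397 genes whose log2 CPM averaged at least 3, a class closer to the tubulin genes in level, 21.6% were raised and 12.8% lowered. CPM are counts per 1000000 of a library, and each log2 fold change is formononetin over control, given with its standard error. The median change of the 10 tubulin genes was 0.22 on the log2 scale and that of all genes tested was -0.01. The groups did not overlap for 7 of the 10, against 39.4% of all genes tested: 5 had every formononetin library above every control library (20.8% of all genes tested) and 2, TUBB2A and TUBB2B, had every one below (18.7%). All 10 passed the filter on low counts.

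The libraries held 37465148 to 45682722 counts on named genes in formononetin libraries and 30848848 to 36243606 in control libraries. Along the first principal component (38.9% of the variance) the 2 groups lay apart. Control replicate 1 stood apart from the other two control libraries on the second, with 16.5% of the variance, at 47.3 against -21.5 and -25.4. The label of a liver-derived line fits the marker genes: ALB averaged 5102 CPM in formononetin libraries and 7003 CPM in control libraries. Of 8 hepatocyte markers, 6 were lowered and 1, HNF4A, raised (median -0.43), with log2 changes from -0.64 to 0.44. Among all genes tested 8.71% were lowered and 12.0% raised, and 12.8% and 21.6% of those with a log2 CPM of at least 3. A fall of 6 of 8 markers is above both shares of lowered genes. Of 8 neuron markers, 6 had a mean under 1 CPM and STMN2 and ELAVL4 had no counts. Of 9 stromal, endothelial and blood markers 6 were under 1 CPM, and PTPRC, CD3E and COL1A2 had no counts. In that list PDGFRB was lowered, with 4.04 ± 0.361 CPM in formononetin libraries and 13.3 ± 1.11 CPM in control libraries (SD, n = 3 each; log2 change -1.72, edgeR adjusted p = 0.000229). CD68 was raised, with 6.73 ± 1.31 CPM in formononetin libraries and 3.35 ± 0.832 CPM in control libraries (1.01, edgeR adjusted p = 0.0204), and PECAM1, at 25.8 and 23.2 CPM in those groups, was not called. In bulk RNA, a smaller share of cells with a transcript and less of it per cell cannot be told apart.

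TUBA1B, the most abundant alpha gene, lies on chromosome 12 (chr12:49127782-49131397, minus strand). It had 788, 598 and 669 CPM in formononetin replicates 1 to 3, against 478, 488 and 481 CPM in control replicates 1 to 3. Every formononetin library was above every control library, with replicate 1 well above the other two. The means were 685 ± 95.9 CPM in formononetin libraries and 483 ± 5.33 CPM in control libraries (SD, n = 3 each), a log2 change of 0.51 ± 0.09 (edgeR adjusted p = 0.00877). Without formononetin replicate 1 the change was 0.39 (edgeR adjusted p = 0.0104). A gene annotated on the opposite strand overlaps 1309 bases of TUBA1B exons. That antisense row had 353, 29 and 61 counts in formononetin replicates 1 to 3 and 58, 43 and 26 in control replicates 1 to 3, so the library with the most TUBA1B also had the most antisense counts. The part of the antisense gene in the TUBA1B level was not tested.

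TUBA1C, another broadly expressed alpha gene (chr12:49188736-49274603, plus strand), had 452, 483 and 509 CPM in formononetin libraries, against 367, 344 and 343 CPM in control libraries. The groups were far apart relative to their spread, with means of 481 ± 28.2 CPM in formononetin libraries and 351 ± 13.3 CPM in control libraries (SD, n = 3 each). The log2 change was 0.45 ± 0.05 (edgeR adjusted p = 0.00155). TUBA1A (chr12:49184796-49189324, minus strand), the alpha gene typical of postmitotic neurons, was the scarce alpha gene. It had 27.8, 26.2 and 30.5 CPM in formononetin libraries, against 24.7, 26.4 and 22.4 CPM in control libraries. The groups overlapped, and the log2 difference of 0.20 ± 0.09 did not pass the test (edgeR adjusted p = 0.161). Exons of TUBA1A and TUBA1C overlap by 490 bases on opposite strands, and the strand setting of the counting is not given in the sources used here.

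**Figure D1:**
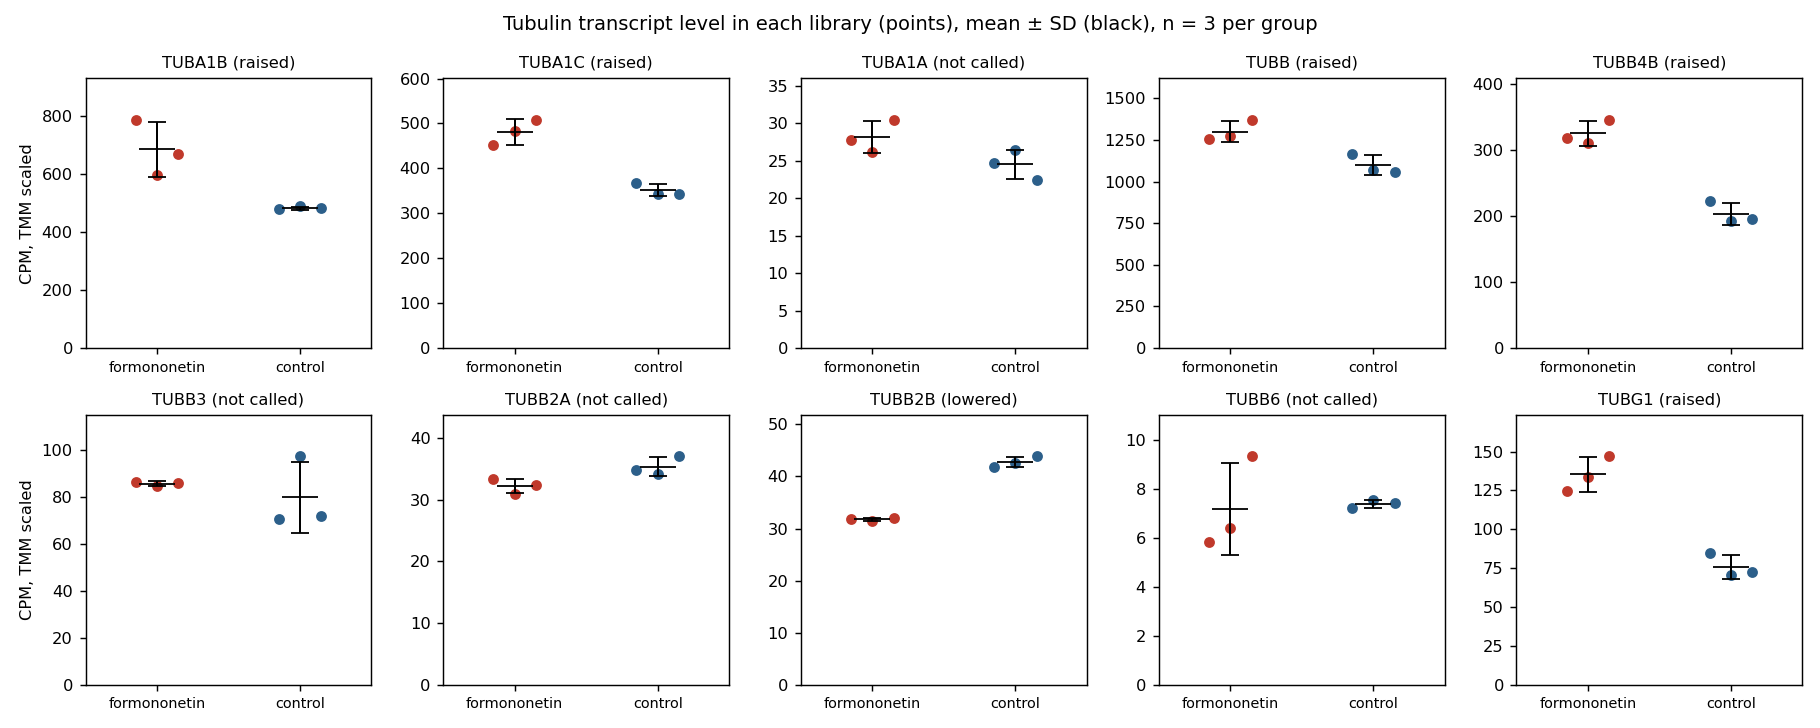
Transcript level of each tubulin gene in CPM (vertical axes, from 0) in the 3 formononetin libraries (red, left) and the 3 control libraries (blue, right); points are libraries and black bars the mean ± SD. TUBB reached 1056 to 1372 CPM and TUBB6 stayed below 10 CPM, and the groups did not overlap for 7 of the 10 genes.

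TUBB, the main beta gene outside the nervous system (chr6:30720201-30725426, plus strand), was the most abundant tubulin transcript. It had 1257, 1271 and 1372 CPM in formononetin libraries, against 1167, 1070.1 and 1056 CPM in control libraries. The groups were separated by a small margin. The log2 change was 0.24 ± 0.05 (edgeR adjusted p = 0.0199). The call ended in 5 of 16 other settings: upper quartile scaling (adjusted p = 0.071), a block for the replicate number (0.0566), and omission of formononetin replicate 3 (0.0605), control replicate 2 (0.0641) or control replicate 3 (0.0724).

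TUBB4B, a beta gene of most tissues and of cilia (chr9:137241213-137243707, plus strand), changed most among the beta genes. It had 318, 312 and 347 CPM in formononetin libraries, against 223, 193 and 195 CPM in control libraries. The lowest formononetin library was well above the highest control library, control replicate 1. The means were 326 ± 18.5 CPM in formononetin libraries and 204 ± 16.7 CPM in control libraries (SD, n = 3 each), a log2 change of 0.68 ± 0.07 (edgeR adjusted p = 0.000899).

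TUBB2B, a beta gene best known from the developing brain (chr6:3224261-3231730, minus strand), was the only one of the 10 called lower. It had 31.8, 31.5 and 32.0 CPM in formononetin libraries, against 41.9, 42.6 and 43.9 CPM in control libraries. Both groups were tight, with a coefficient of variation of 0.758% in formononetin libraries and 2.36% in control libraries. The log2 change was -0.43 ± 0.05 (edgeR adjusted p = 0.0017). Exons of TUBB2B overlap those of PSMG4 on the opposite strand by 174 bases. PSMG4 had 1684 to 1932 counts in formononetin libraries and 1586 to 1938 in control libraries. TUBB2B had 1201 to 1448 and 1273 to 1523 counts in those groups. The part of PSMG4 in the TUBB2B level was not tested. TUBB2A, the near-copy of TUBB2B (chr6:3153669-3157526, minus strand), had 33.3, 31.0 and 32.4 CPM in formononetin libraries, against 34.8, 34.1 and 37.0 CPM in control libraries. These groups did not overlap either, yet the log2 difference of -0.13 ± 0.06 did not pass the test (edgeR adjusted p = 0.185).

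How far these values are separate depends on how the authors' counting treated reads that fit both genes. Of all stretches of 75 bases in TUBB2A transcripts, 53.2% occurred unchanged in another gene, mostly TUBB2B, and 41.4% of those of 150 bases did. For TUBB2B the shares were 45.4% and 36.1%. Summed before the fit, TUBB2A and TUBB2B changed by -0.29 on the log2 scale (edgeR adjusted p = 0.0061). The alpha genes shared less, 18.6% of 75-base stretches for TUBA1B, 14.1% for TUBA1A and 10.3% for TUBA1C. The sum of TUBA1A, TUBA1B and TUBA1C changed by 0.48 (edgeR adjusted p = 0.00123). TUBB4B shared 3.98% and TUBB6 none.

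TUBB3, known as the neuronal beta isotype and also made by many tumour lines (chr16:89921392-89938761, plus strand), had 86.5, 84.5 and 85.8 CPM in formononetin libraries, against 70.4, 97.2 and 71.7 CPM in control libraries. Control replicate 2 was above every other library and the groups overlapped. The log2 difference was 0.10 ± 0.12 (edgeR adjusted p = 0.615). Without control replicate 2 it was 0.27 and passed the test (edgeR adjusted p = 0.0187), so 1 library decided the call. A second gene model on the same strand, AC092143.1, contains 1584 bases of TUBB3 exons. It had 0, 0 and 17 counts in formononetin libraries and 112, 0 and 24 in control libraries, and with both models summed the log2 difference was 0.08 (edgeR adjusted p = 0.681).

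TUBB6, a divergent beta isotype (chr18:12307669-12344320, plus strand), was the scarcest of the 10. It had 5.83, 6.42 and 9.34 CPM in formononetin libraries, against 7.21, 7.54 and 7.43 CPM in control libraries. Formononetin replicate 3 was the highest and the other two formononetin libraries the lowest. The log2 difference was -0.04 ± 0.18 (edgeR adjusted p = 0.913) and was -0.28 without formononetin replicate 3 (edgeR adjusted p = 0.189). Its exons overlap those of AFG3L2 on the opposite strand by 837 bases, and AFG3L2 had 3933 to 4769 counts in formononetin libraries and 2805 to 3331 in control libraries, where TUBB6 had 235 to 423 counts in formononetin libraries and 219 to 270 in control libraries.

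TUBG1, the main gamma tubulin of dividing cells (chr17:42609676-42615234, plus strand), had the largest change of the 10. It had 125, 134 and 147 CPM in formononetin libraries, against 84.9, 70.3 and 72.4 CPM in control libraries. Every formononetin library was far above every control library, control replicate 1 being the highest control. The means were 135 ± 11.1 CPM in formononetin libraries and 75.9 ± 7.88 CPM in control libraries (SD, n = 3 each), a 1.78-fold level and a log2 change of 0.84 ± 0.09 (edgeR adjusted p = 0.00105). Over 16 other settings the change ranged from 0.76 to 0.92 and the call held in each. Of its 75-base stretches, 12.3% also occur in TUBG2. Exons of TUBG1 overlap those of RETREG3 on the opposite strand by 139 bases. RETREG3 had 5325 to 6175 counts in formononetin libraries and 3627 to 4391 in control libraries. TUBG1 had 5035 to 6659 and 2454 to 2580 counts in those groups. The part of RETREG3 in the TUBG1 level was not tested.

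**Figure D2:**
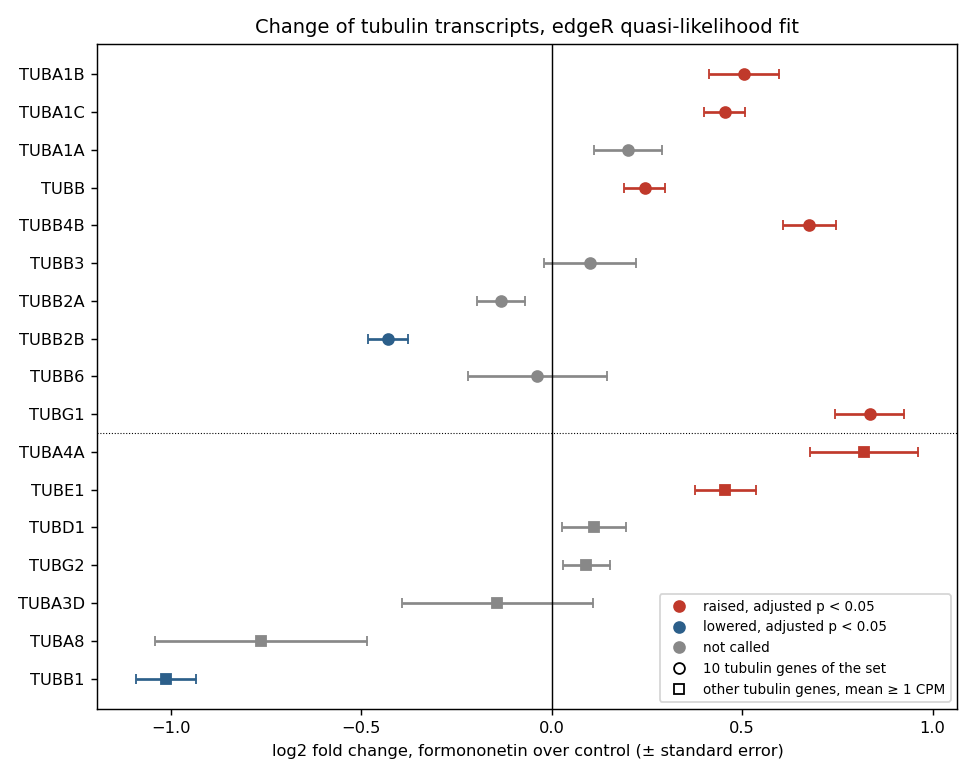
Log2 fold change of formononetin over control (horizontal axis, with standard error bars) for the 10 tubulin genes (circles) and for 7 other tubulin genes with a mean of at least 1 CPM (squares); red is raised, blue lowered and grey not called. TUBG1 at 0.84 and TUBA4A at 0.82 lie farthest right, TUBB2B at -0.43 and TUBB1 at -1.01 farthest left among the called genes.

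The 2 largest rises were compared with the largest fall at the level of promoter sequence, in RefSeq promoters (GRCh38.p14) that run from 250 bases before to 50 after a start. The letters CCAAT, the core of a common promoter element, were searched on both strands, and the 250 bases before the start are shown with CCAAT or its reverse complement in capitals.
TUBG1, chr17:42609433-42609682, plus strand: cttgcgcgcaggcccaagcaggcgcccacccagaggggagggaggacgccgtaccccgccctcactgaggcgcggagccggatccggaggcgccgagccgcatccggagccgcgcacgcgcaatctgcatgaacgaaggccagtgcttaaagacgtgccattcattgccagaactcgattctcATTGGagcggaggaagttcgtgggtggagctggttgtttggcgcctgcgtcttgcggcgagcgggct
TUBB4B, chr9:137241037-137241286, plus strand: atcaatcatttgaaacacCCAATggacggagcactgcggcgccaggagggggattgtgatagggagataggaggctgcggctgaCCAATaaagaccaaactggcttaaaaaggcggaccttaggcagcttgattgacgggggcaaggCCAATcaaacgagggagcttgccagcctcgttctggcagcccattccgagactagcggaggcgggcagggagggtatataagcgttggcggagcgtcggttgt
TUBB2B, chr6:3227654-3227903, minus strand: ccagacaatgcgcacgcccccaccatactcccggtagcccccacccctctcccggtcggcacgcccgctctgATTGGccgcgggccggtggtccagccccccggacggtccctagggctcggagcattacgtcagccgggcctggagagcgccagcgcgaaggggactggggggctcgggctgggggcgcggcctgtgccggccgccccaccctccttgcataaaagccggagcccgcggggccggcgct
TUBB4B holds CCAAT 3 times, and TUBG1 and TUBB2B once each. The 10 tubulin genes have 15 windows in the RefSeq table, and 10 of these, of 8 genes, hold CCAAT, against 34.6% of 35116 promoters of the same length. The windows of TUBA1B and TUBB2A do not. The 34.6% is a share of windows and not of genes. Overlapping windows of TUBA1C hold the same site, and TUBB, TUBB3 and TUBB6 each also have a window without CCAAT. The letters TTTGAA occur in windows of TUBA1C and TUBB4B (15.2% of all promoters), and TTGGCGC in that of TUBG1 (3.04%). TTTAAA (12.2%) and TTCCCGC (6.55%) occur in none. These matches only describe letters in a window.

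Levels of different genes were compared per kilobase of annotated exon. In formononetin libraries TUBB came first with 387 ± 18.6 CPM per kb (SD, n = 3), followed by TUBA1B with 192 ± 26.8, TUBB4B with 154 ± 8.76, TUBA1C with 104 ± 6.08 and TUBG1 with 56.1 ± 4.60. In control libraries these 5 genes had the same order, with 327 ± 18.0, 135 ± 1.49, 96.5 ± 7.91, 75.9 ± 2.88 and 31.5 ± 3.27 CPM per kb (SD, n = 3). No neighbours among these 5 overlapped in either group at this length. The gaps depend on the length used: TUBA1B has 3574 bases of annotated exon and 1627 in its principal transcript. TUBB has 3359 and 2670. The order of levels was read with annotated exons only. TUBB3 and TUBB2A overlapped in formononetin libraries, where TUBB2B lay below both, while TUBB2A, TUBB2B and TUBB3 overlapped in a chain in control libraries. TUBA1A and TUBB6 were the lowest in both groups.

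Summed by class, the 3 alpha genes had 326, 279 and 306 CPM per kb in formononetin libraries, against 220, 219 and 215 CPM per kb in control libraries, a 1.39-fold level. The 6 beta genes had 580, 579 and 627 CPM per kb in formononetin libraries, against 510, 473 and 466 CPM per kb in control libraries, a 1.23-fold level. The single gamma gene was at 1.78-fold. The groups did not overlap for any of these sums, which get no test because the genes were chosen with results known.

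The log2 ratio of the beta sum to the alpha sum was 0.83, 1.05 and 1.04 in formononetin libraries, against 1.21, 1.11 and 1.11 in control libraries. Beta transcripts thus stayed more abundant than alpha transcripts in all 6 libraries, by less in formononetin libraries. The size of that excess depends on the length used. Per principal transcript the log2 ratio was 0.21, 0.47 and 0.45 in formononetin libraries, against 0.62, 0.53 and 0.52 in control libraries. Per kilobase of annotated exon the mean difference between groups was -0.17 on the log2 scale. Formononetin replicate 1, the library high in TUBA1B, had the lowest ratio, and leaving out 1 library at a time moved the difference between -0.21 and -0.10. Gamma transcript per 100 of alpha plus beta was 6.24 ± 0.453 in formononetin libraries and 4.48 ± 0.310 in control libraries (SD, n = 3 each). The log2 ratio of gamma to beta was higher by 0.53 in formononetin libraries, with no overlap. That of gamma to alpha was higher by 0.36, with overlap, since formononetin replicate 1 at -2.65 lay just below control replicate 1 at -2.64.

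**Figure D3:**
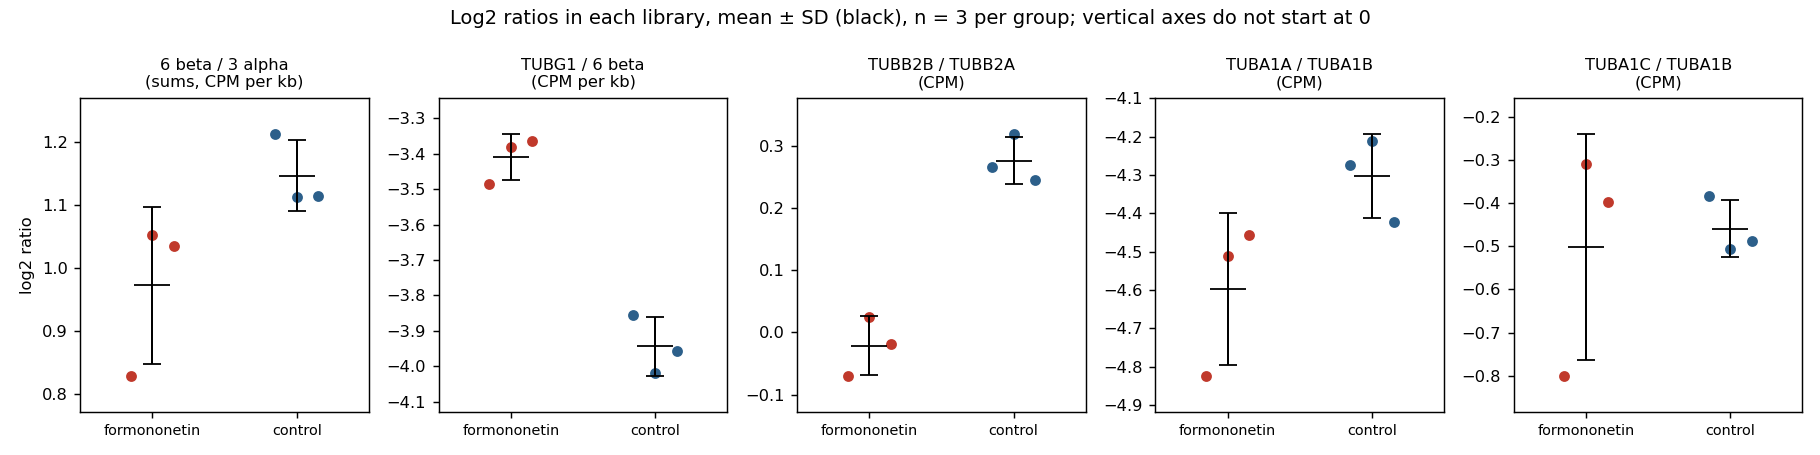
Log2 ratios within each library (vertical axes, not starting at 0) for formononetin (red, left) and control (blue, right); points are libraries and black bars the mean ± SD of 3. The 6 beta genes over the 3 alpha genes and TUBB2B over TUBB2A are lower in every formononetin library, TUBG1 over the beta genes is higher, and TUBA1C over TUBA1B overlaps.

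Isotype shares were taken within a class, per kilobase. TUBB4B made up 26.0%, 25.5% and 26.2% of beta transcript in formononetin libraries, against 20.7%, 19.3% and 19.8% in control libraries. Its share was higher by 5.93 percentage points, the largest shift of the 9 shares. TUBB itself was called raised, yet its share was lower, at 65.0 ± 0.412% in formononetin libraries and 67.6 ± 0.424% in control libraries (SD, n = 3 each). TUBB2A made up 3.14 ± 0.174% in formononetin libraries and 4.24 ± 0.326% in control libraries. TUBB2B made up 2.43 ± 0.0960% in formononetin libraries and 4.04 ± 0.277% in control libraries. TUBB3 and TUBB6, at 3.25% and 0.292% in formononetin libraries and 3.74% and 0.373% in control libraries, overlapped between groups.

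Among alpha transcripts TUBA1B made up 62.9 ± 4.09% in formononetin libraries and 61.9 ± 1.02% in control libraries, and TUBA1C 34.4 ± 3.91% in formononetin libraries and 34.8 ± 1.05% in control libraries (SD, n = 3 each). Both shares overlapped between groups. TUBA1A made up 2.72 ± 0.211% in formononetin libraries and 3.28 ± 0.240% in control libraries, with no overlap. For the 5 shares that did not overlap, the exact permutation test (two-sided) gave p = 0.1, the smallest that 3 against 3 libraries allow, and 0.18 after adjustment over the 9 shares. This design cannot bring a share past 0.05.

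**Figure D4:**
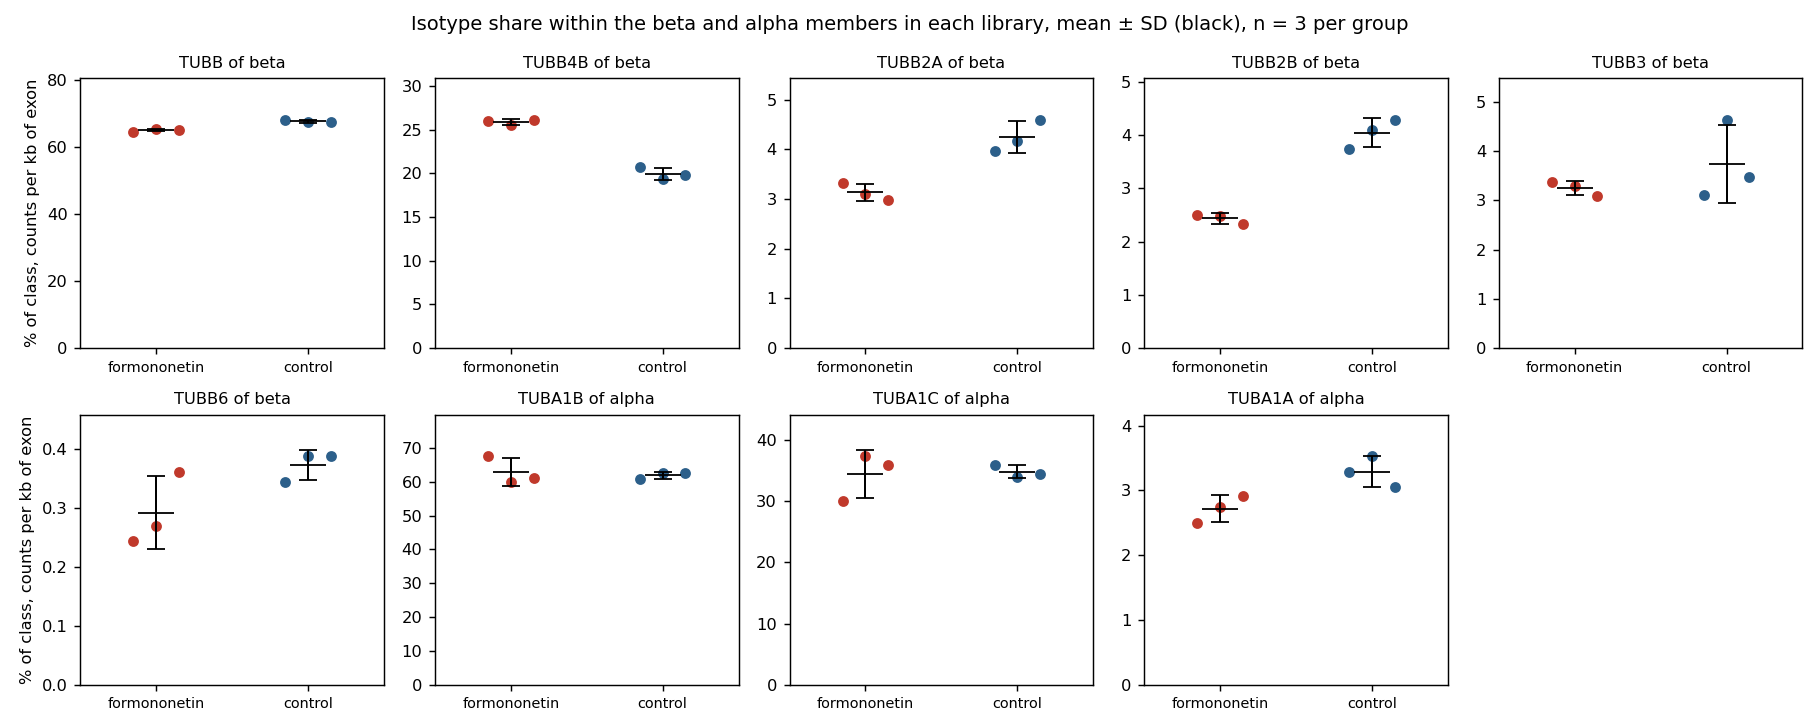
Share of each isotype in the summed level of its class, in % per kilobase of exon (vertical axes, from 0), in formononetin (red, left) and control libraries (blue, right); points are libraries and black bars the mean ± SD of 3. TUBB4B stands at 25.5 to 26.2% in formononetin libraries and 19.3 to 20.7% in control libraries, while TUBA1B and TUBA1C overlap between groups.

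Ratios between 2 genes in each library, in CPM with no scaling by length, tested whether they changed unequally. Only their difference between groups can be read, not which gene of a pair is higher. The log2 ratio of TUBB2B to TUBB2A was -0.07, 0.02 and -0.02 in formononetin libraries, against 0.27, 0.32 and 0.24 in control libraries, a difference of -0.30. Per kilobase TUBB2B was below TUBB2A in all 6 libraries, with means of 14.5 and 18.7 CPM per kb in formononetin libraries and 19.5 and 20.5 CPM per kb in control libraries. The ratio of TUBG1 to TUBB was higher by 0.59 in formononetin libraries, and those of TUBA1A to TUBA1B (difference -0.29) and of TUBB to TUBA1B (difference -0.25) were lower. None of these 4 ratios overlapped between groups (exact permutation p = 0.1, two-sided, the smallest possible, and 0.15 after adjustment over the 6 ratios). TUBA1C to TUBA1B (difference -0.04, exact permutation p = 0.9) and TUBB6 to TUBB (difference -0.31, exact permutation p = 0.2) overlapped.

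Outside the 10 genes, 13 other tubulin genes were looked up, of which 8 passed the filter, with 2 raised and 1 lowered. Among all genes tested 12.0% were raised and 8.71% lowered, and 21.6% and 12.8% of those with a log2 CPM of at least 3. With so few genes, 2 of 8 raised and 1 of 8 lowered are near these shares. TUBB1, the beta isotype of platelets, fell to 12.2 ± 0.754 CPM in formononetin libraries, against 24.5 ± 0.842 CPM in control libraries (SD, n = 3 each; log2 change -1.01 ± 0.08, edgeR adjusted p = 0.000354). It overlaps exons of ATP5F1E on the opposite strand by 1188 bases. TUBA4A, another alpha gene, rose to 12.0 ± 2.22 CPM, against 6.78 ± 0.0975 CPM in control libraries (0.82 ± 0.14, edgeR adjusted p = 0.00736), and overlaps STK16 on the opposite strand by 627 bases. TUBE1, epsilon tubulin of the centriole, rose to 14.3 ± 0.316 CPM, against 10.4 ± 0.409 CPM in control libraries (0.46 ± 0.08, edgeR adjusted p = 0.00759).

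The other gamma gene TUBG2 was not called, with 23.4 ± 0.415 CPM in formononetin libraries and 22.0 ± 0.499 CPM in control libraries (SD, n = 3 each; log2 difference 0.09, edgeR adjusted p = 0.356). Delta tubulin, TUBD1, also centriolar, was not called, at 16.1 ± 0.789 CPM in formononetin libraries and 14.9 ± 0.965 CPM in control libraries. TUBA8 (log2 difference -0.76, edgeR adjusted p = 0.0975) and TUBA3D (-0.14) had 1.51 and 1.84 CPM in formononetin libraries and 2.56 and 2.03 CPM in control libraries. Exons of TUBA8 overlap those of PEX26 by 1349 bases on the same strand and those of AC008079.1 by 1847 bases on the opposite strand. In formononetin replicate 1 PEX26 had 1763 counts, AC008079.1 had 275 and TUBA8 had 50. The part of these genes in the TUBA8 level was not tested. The remaining 6 tubulin genes, among them TUBB4A, TUBB8 and TUBAL3, had a mean under 1 CPM.

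Tubulin folds in the chaperonin CCT, to which prefoldin delivers it. Of 14 genes of both complexes, 8 rose (57.1%) and none fell (median 0.23), where 12.0% of all genes tested rose and 8.71% fell, and 21.6% and 12.8% of those with a log2 CPM of at least 3. The same shares are the background of the lists that follow. VBP1 was the only prefoldin subunit called, and all other rises in this list were of CCT subunits. The largest rises were those of VBP1, a prefoldin subunit, with 18.4 ± 2.03 CPM in formononetin libraries and 13.0 ± 2.08 CPM in control libraries (0.50 ± 0.14, edgeR adjusted p = 0.0414), and of TCP1, a CCT subunit, with 261 ± 16.5 CPM in formononetin libraries and 189 ± 19.3 CPM in control libraries (0.47 ± 0.08, edgeR adjusted p = 0.0074). The count was 5 to 9 over 16 other settings, and the VBP1 call ended in 7 of them. Of 7 dimer-assembly cofactors and their partners, TBCD rose (0.20 ± 0.05, edgeR adjusted p = 0.0331, a call that ended in 8 of 16 settings), none fell and 6 did not pass (median 0.15).

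Of 21 genes of the gamma-tubulin ring complex, its recruitment factors and augmin, 6 rose (28.6%), 1 fell (4.76%) and 14 did not pass (median 0.20). The share raised is near the 21.6% of genes with a log2 CPM of at least 3. HAUS2 and HAUS8, subunits of augmin, which places gamma tubulin on spindle microtubules, had the largest rises. HAUS2 had 6.89 ± 0.390 CPM in formononetin libraries and 3.38 ± 1.15 CPM in control libraries (1.02 ± 0.23, edgeR adjusted p = 0.0187), and HAUS8 had 10.5 ± 0.753 CPM in formononetin libraries and 5.92 ± 0.0257 CPM in control libraries (0.83 ± 0.10, edgeR adjusted p = 0.00166). The HAUS2 call ended in 3 of 16 settings. AKAP9, a Golgi and centrosome scaffold, had 77.3 ± 5.36 CPM in formononetin libraries and 107 ± 7 CPM in control libraries (-0.47 ± 0.07, edgeR adjusted p = 0.00416).

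Of 9 genes of tubulin mRNA autoregulation, TTC5 rose, CNOT3 and CNOT11 fell and 6 did not pass (median -0.13). With so few genes, 11.1% raised and 22.2% lowered are near the background of 12.0 to 21.6% and 8.71 to 12.8%. TTC5 had 23.5, 28.1 and 21.1 CPM in formononetin libraries, against 16.3, 17.0 and 18.5 CPM in control libraries (0.49 ± 0.12, edgeR adjusted p = 0.0248). Its groups did not overlap, but the call ended in 5 of 16 settings. CNOT3, a CCR4-NOT subunit, had 31.8, 34.2 and 36.9 CPM in formononetin libraries, against 49.6, 44.9 and 48.2 CPM in control libraries (-0.47 ± 0.07, edgeR adjusted p = 0.00485), a call that held in all 16. CNOT11 changed by -0.17 (edgeR adjusted p = 0.0414), a call that ended in 11 of 16.

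Of 17 genes of enzymes that modify tubulin, 16 were tested, 3 rose, 1 fell and 12 did not pass (median 0.14). The 18.8% raised and 6.25% lowered are near the background of 12.0 to 21.6% and 8.71 to 12.8%. TTL, the ligase that restores the final tyrosine of alpha tubulin, had 168, 161 and 168 CPM in formononetin libraries, against 108, 99.99 and 108 CPM in control libraries. The groups were far apart (0.65 ± 0.05, edgeR adjusted p = 0.000295), and the call held in all 16 settings. TTLL5, a glutamylase, changed by 0.28 (edgeR adjusted p = 0.0377) and TTLL3, a glycylase, by -0.39 (edgeR adjusted p = 0.0357), calls that ended in 6 and 7 settings. Of 25 genes that bind microtubules or control their dynamics, 24 were tested, 7 rose, 1 fell and 16 did not pass (median 0.12). The 29.2% raised is near the 21.6% of genes with a log2 CPM of at least 3, and 4.17% were lowered. STMN1, which sequesters tubulin dimers, changed by 0.49 ± 0.08 (edgeR adjusted p = 0.00484). CLIP1, a plus-end protein, changed by -0.22 (edgeR adjusted p = 0.0482), a call that ended in 9 settings.

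Of 10 markers of proliferation, 9 rose and none fell (median 0.57). Their summed level was 1374, 1368 and 1516 CPM in formononetin libraries, against 1039, 917 and 908 CPM in control libraries. The libraries highest in this sum, formononetin replicate 3 and control replicate 1, were both the highest of their groups for 4 of the 10 tubulin genes (TUBA1C, TUBB, TUBB4B and TUBG1). For the other 6, TUBA1B and TUBB2B among them, at least 1 of the 2 was not. The share of all genes tested that were highest in both libraries was not counted, so the 4 genes have no background to be read against. The part of proliferation in the tubulin changes was not tested.

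**Figure D5:**
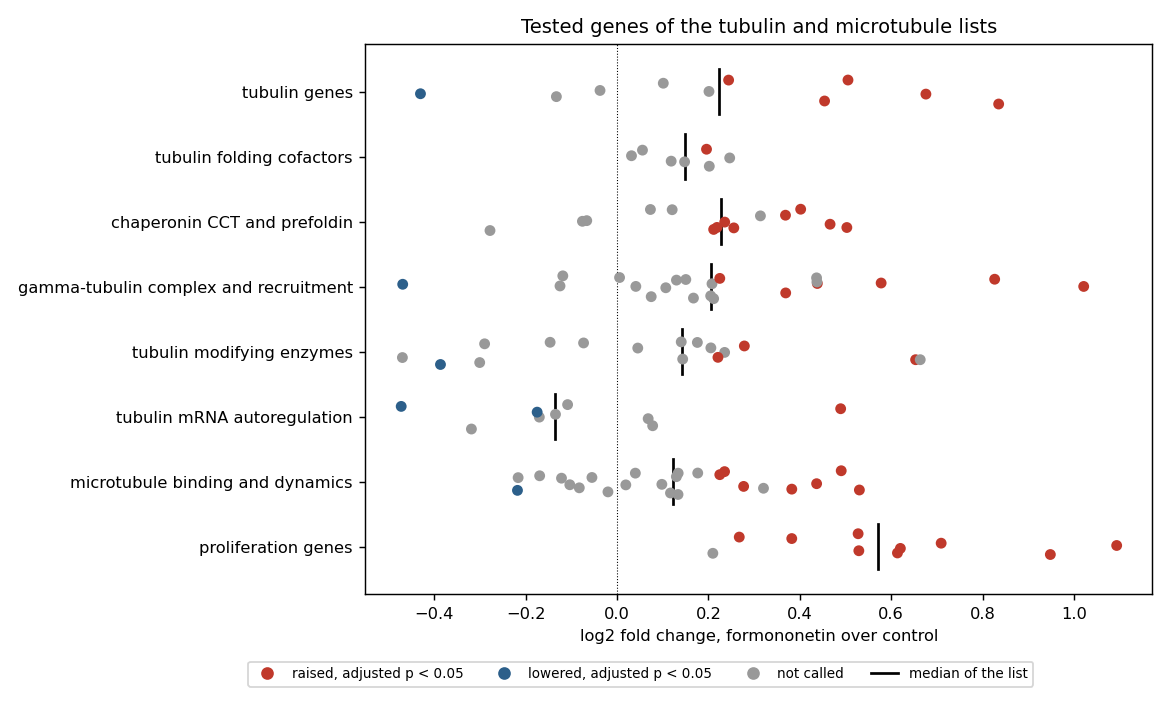
Log2 fold change of formononetin over control (horizontal axis) for every tested gene of each list (rows); red is raised, blue lowered, grey not called, and the black line is the median of the list. The median was 0.22 for the 10 tubulin genes, 0.23 for CCT and prefoldin, 0.57 for proliferation genes and -0.13 for mRNA autoregulation.

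Likeness of pattern was measured as the root mean square difference of log2 CPM, each gene centred on its mean over the 6 libraries, against 10396 genes whose log2 CPM averaged at least 3. TUBG1 was most like RFLNB (0.04), FANCD2 (0.04) and RFC3 (0.05), and among the other tubulin genes TUBB4B came closest, in place 37 (0.09). TUBA1B was most like DPY19L1 (0.05), CCDC150 (0.06) and EMC7 (0.06). TUBB was most like ELMOD2 (0.01), DLD (0.02) and SYNGR2 (0.02). The tubulin gene closest to TUBA1B was TUBA1C, in place 983 (0.16), and that closest to TUBB was TUBA1A, in place 935 (0.08).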

How the data were processed

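Libraries of 6 HepG2 samples were made from 500 ng of total RNA with a stranded mRNA kit, per the labels' protocols. The authors deposited a table of whole-number raw counts per gene. The submitters' processing notes name GRCh38, STAR 2.5.3a and StringTie 1.3.1c without a role. How reads were counted, on which strand, and what was done with reads that fit several genes is not given in the sources used here. Of 62729 rows, 2165 were assembled loci without a gene name, which held 3.82 to 5.62% of counts and were left out. Symbols from a table of gene names matched 60295 of 60564 Ensembl identifiers.

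Genes were filtered with filterByExpr, scaled with TMM and tested two-sided with the quasi-likelihood functions glmQLFit and glmQLFTest of edgeR 4.0.16 under R 4.3.3, with group as the only term and Benjamini-Hochberg adjustment. Standard errors were taken as the log2 fold change over the square root of F. The fit was also run on simulated counts drawn with its own fitted dispersion. That run cannot show whether the model holds for these libraries. CPM use TMM-scaled totals, and precision is limited by 3 libraries per group more than by the 30848848 to 45682722 counts per library. Replicates differed by more than sampling noise (chi-square per degree of freedom 13.5 to 34.6). Lengths are the union of GENCODE 29 exons. Shared stretches of 75 and 150 bases were counted over GENCODE 29 transcripts. Shares and ratios were compared with exact permutation tests.

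The tubulin genes, the other lists and the tests were chosen with earlier results of these data known. Named were all 10 tubulin genes, other tubulin genes with a mean of at least 1 CPM, and up to 2 called genes per list in each direction with the largest change. One gene that this rule names, and some sequences, are not reported here. Markers named for their level, PECAM1 and TUBB4A, TUBB8 and TUBAL3 were named after their values were seen. Likeness was computed for TUBA1B, TUBB and TUBG1, with 3 genes each. Alternatives were DESeq2 1.42.0, other scalings and low-count filters, the replicate number as a block, near-copies or overlapping models summed, and leaving out each library. Keeping the assembled loci and scaling shares and class ratios by 1 principal transcript were added after seeing the data.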

Additional observations from a re-analysis of the deposited data

How the results depend on the processing

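Over 16 other settings, 4 to 5 of the 10 tubulin genes were raised (4 of 7 where near-copies were summed) and 1 was lowered, and no log2 fold change of a called tubulin gene changed sign. Only TUBB lost its call, and only TUBB3, without control replicate 2, gained one. With the replicate number as a block, TUBB had an edgeR adjusted p of 0.0566, and 1921 genes were raised and 1362 lowered, against 2659 and 1937 without it. The labels state no pairing by replicate number. Over all genes tested, same-numbered libraries deviated from their group means with correlations of -0.02 to 0.01. Such values cannot exclude a pairing that touches only some genes. Upper quartile scaling called 1813 genes raised and 2737 lowered, and no low-count filter called 2310 and 1328. Leaving out 1 library called 1703 to 2189 genes raised and 1272 to 1478 lowered. DESeq2 called 2980 and 1828. The difference in the log2 ratio of beta to alpha, -0.17, was -0.19 from raw counts, -0.18 per principal transcript and -0.21 to -0.10 without 1 library. Counts that moved by over 1.5 times were other tubulin genes lowered (1 to 2), folding cofactors raised (0 to 1), CCT and prefoldin raised (5 to 9) and lowered (0 to 1), autoregulation raised (0 to 1) and lowered (1 to 3), modifying enzymes raised (1 to 5) and lowered (0 to 1), microtubule binding lowered (0 to 4), and stromal, endothelial and blood markers raised (0 to 1) and lowered (1 to 2). The causes were not tested. Every tubulin gene had at least 219 counts per library, so depth limited TUBB6 most.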

Other observations

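The table also holds tubulin pseudogenes, whose values were looked at after the results were seen. TUBAP13, an alpha tubulin pseudogene (chr2:153420677-153421957), had 77, 84 and 88 counts in formononetin libraries, against 10, 11 and 12 in control libraries. The groups were far apart, with a log2 change of 2.60 ± 0.20 (edgeR adjusted p = 0.000329). It overlaps the exons of AC012501.1 by 342 bases on the same strand, a row with 11, 13 and 30 counts in formononetin libraries and 4, 6 and 5 in control libraries. TUBA5P had 291, 310 and 357 counts in formononetin libraries and 158, 236 and 149 in control libraries (log2 difference 0.52 ± 0.16, edgeR adjusted p = 0.0595). The antisense row on TUBA1B had a log2 difference of 1.49 ± 0.88 (edgeR adjusted p = 0.289).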
